A study of Danio rerio with 8 samples.

Results

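Distal trunk tissue of larval zebrafish exposed to BkF (benzo[k]fluoranthene, a combustion product of the polycyclic aromatic class) was compared with solvent control tissue at 96 hours post fertilization (hpf), the latest of 4 times sampled. The comparison rests on 2 of the 8 samples deposited, BkF and control at 96 hpf, and the 6 samples of 48, 60 and 72 hpf serve to show where the latest time stands apart. All animals were wild type of the Tropical 5D line, with the chorion taken off enzymatically at 4 hpf. The BkF group was kept in 12 µM BkF and the control group in 1% DMSO, as a static exposure begun between 6 and 8 hpf. The sources used here do not say whether the BkF wells held DMSO. The tissue was the tail end of the trunk, cut off at a gap in the pigment, and it took in the place where BkF gives an extra fin. Each sample is the authors' mean over 4 pools of 50 animals, so each group has 1 value per gene and no value below carries a replicate error. Of 24345 gene identifiers, the 21950 with a mean of 10 or more normalized counts over the 8 samples entered, and 2395 fell below that minimum. The log2 ratio of a gene is log2 of BkF over control after 1 is added to both values. Values given in sets of 4 follow the order 48, 60, 72 and 96 hpf.

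Planar hydrocarbons such as BkF bind the aryl hydrocarbon receptor (AHR), a transcription factor that then pairs with its partner ARNT and switches on genes of drug metabolism, among them the cytochrome P450 genes of family 1. In larval fish the distal trunk holds skin, fin fold, fast and slow swimming muscle, notochord, the end of the spinal cord, pigment cells and vessels. During these days the neural progenitors of the spinal cord give way to neurons, and the notochord and its collagen sheath stiffen the tail. The samples held the markers such tissue should hold. At 96 hpf the keratin gene krt4 stood at 2782088 in control and 402569.9 in BkF tissue, the fin fold fibre gene and2 at 2090017 in control and 833611 in BkF tissue and the tail identity gene HOXB13 at 25202 in control and 27552 in BkF tissue. The lipoprotein gene apoa2, made by liver and yolk cells, was at 1.09 in control and 26.3 in BkF tissue. At 48 hpf it had stood at 3.39 in control and 1099.5 in BkF tissue, and those samples enter the earlier mean used below. In bulk tissue fewer cells of a type and less RNA per cell cannot be told apart.

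As deposited, the values put BkF tissue farther from control tissue at 96 hpf than at any earlier time, mostly on the side of lower expression. At least 2-fold higher were 1162 of the 21950 genes (5.29%), and 1909 (8.70%) were at least 2-fold lower. At 48 hpf the corresponding counts were 798 (3.64%) and 904 (4.12%), at 60 hpf 922 (4.20%) and 1097 (5.00%), and at 72 hpf 1072 (4.88%) and 1376 (6.27%). The number lower for each gene higher thus was 1.13, 1.19, 1.28 and 1.64 over the successive times. A 4-fold increase was seen in 345 genes (1.57%) at 96 hpf and a 4-fold decrease in 381 (1.74%), where the earlier times had 257, 270 and 295 higher against 152, 191 and 243 lower. Across genes the SD of the log2 ratio widened from 0.68 to 0.71, 0.75 and 0.84. The median ratio at 96 hpf was -0.013. The split between higher and lower depends on the scale. With totals equalized across samples it was 1521 higher against 1442 lower at 96 hpf, or 0.95 lower for each higher, against 0.58, 0.59 and 0.61 before. With quantile normalization it was 1330 against 1646. Under all 3 scales the lower genes were most numerous, and the number lower for each higher largest, at 96 hpf. These are sizes, not tests, because a single time has 1 value per group.

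More than 50% of the genes at least 2-fold lower at 96 hpf had not been so at 72 hpf. Of the 1909 genes, 803 were also at least 2-fold lower at 72 hpf and 324 at every time. For the 1162 higher genes the numbers were 656 and 320. A gain or loss of at least 2-fold at 96 hpf alone was found in 370 higher and 933 lower genes. At 48 hpf alone there were 228 and 221 such genes, at 60 hpf alone 167 and 188, and at 72 hpf alone 248 and 313. With totals equalized the counts at 96 hpf alone were 451 and 777. Alone here means past the 2-fold cutoff at no other time, so a gene can have stood just short of it before. A log2 ratio at least 1 above that of every other time was found in 270, 90, 91 and 208 genes. At least 1 below were 196, 84, 117 and 581, so on the higher side 48 hpf had more such genes than 96 hpf. Of the 1909 genes lower at 96 hpf, 283 had stood at or above control at 72 hpf and 140 at all 3 earlier times. Taken by itself rather than as a ratio, the 96 hpf BkF sample was at least 2-fold below each of the other 7 samples in 238 genes and at least 2-fold above them in 79. The control sample of 96 hpf had 26 and 12 such genes, and the other 6 samples had 21 to 173 below and 4 to 41 above.

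**Figure D1:**
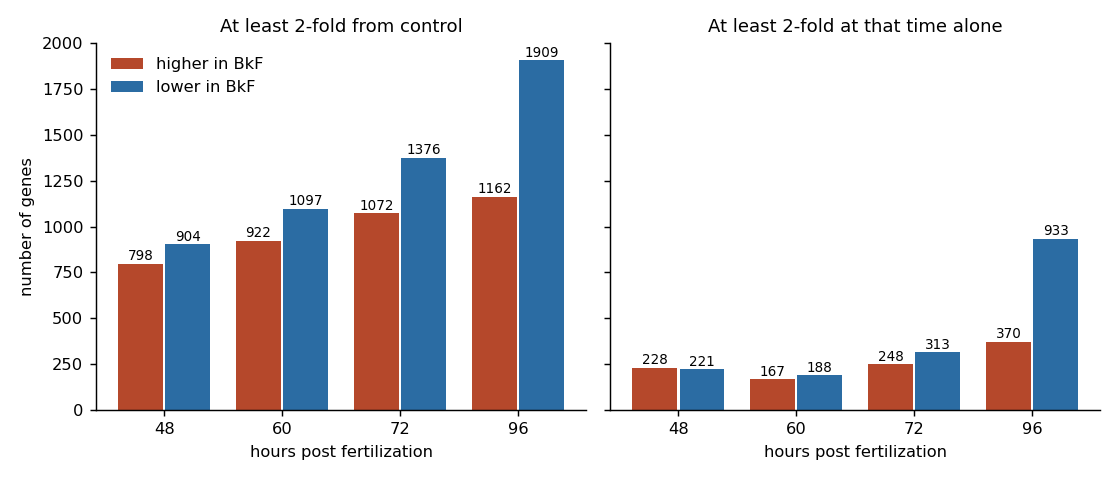
Number of genes at least 2-fold higher or lower in BkF than in control tissue at each time (left) and at that time alone (right), of 21950. The 1909 lower genes at 96 hpf, 933 of them lower at that time alone, stand above all other bars.

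The test of what was particular to 96 hpf set each gene's ratio at that time against its mean ratio at 48, 60 and 72 hpf (limma on log2 values with time as a block, Benjamini-Hochberg adjusted over all genes). With 34 genes (0.155%) the ratio was higher at 96 hpf and with 188 (0.856%) it was lower, at an adjusted p under 0.05. The error in this test is the spread of the ratio among the 3 earlier times, with 2 residual degrees of freedom, not the spread between animals or pools. When 48, 60 or 72 hpf was treated in the same way as the single time, 0 genes passed (limma, with 1600, 157 and 448 genes at an unadjusted p under 0.05, against 3128 for 96 hpf). In those fits the ratio at 96 hpf enters the error, so a low count there is partly built in. As the last time, after the longest gap, 96 hpf can also stand apart in a gene that drifts steadily. The counts of the single times are therefore not like for like. The calls hung on the earlier samples and on the variance model. Leaving out 60 hpf gave 1 higher gene and 3 lower, and a prior variance without intensity trend gave 2 higher and 1 lower. Leaving out 48 hpf gave 203 and 541, and leaving out 72 hpf gave 155 and 510. In the groups of genes below, a call therefore means a ratio at 96 hpf far from the earlier mean for the spread that this model gives the gene. That spread also draws on genes of like intensity. A gene with a wide range from 48 to 72 hpf can thus pass, as hbbe3 did (0.68, 1.64 and 2.17). Counts of calls in a list are to be read against the 0.155% called higher and 0.856% called lower over all genes. The members of all lists were chosen with earlier results of these data known, so such counts describe a list and do not test it.

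In the 188 lower genes control and BkF values moved apart from 72 to 96 hpf. From 72 to 96 hpf their median log2 change was 0.26 in control tissue, with 176 of 188 above their 72 hpf value, and -1.12 in BkF tissue, with 187 of 188 below it. In 181 of the 188 the 96 hpf BkF value was the lowest of all 8 samples. The 34 higher genes had a median change of -0.33 in control and 0.86 in BkF tissue, and in 26 the 96 hpf BkF value was the highest of 8. Over all genes both medians were 0.01, and the 96 hpf BkF value was the lowest of 8 in 20.1% and the highest in 21.8%. The call itself rests on both the control and the BkF values of 96 hpf. The counts of either side are therefore a description of what was called and support nothing further. Of the 188, 132 had a mean earlier ratio within 0.5 of 0 on the log2 scale, 27 had already been lower by more than that and 29 had been higher. A symbol that names a gene was at hand for 149 of the 188 and 22 of the 34. Only 69 of the 188 and 5 of the 34 belong to any of the gene lists used below. Most calls of either direction therefore lie outside the lists, and the lists do not account for them.

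**Figure D2:**
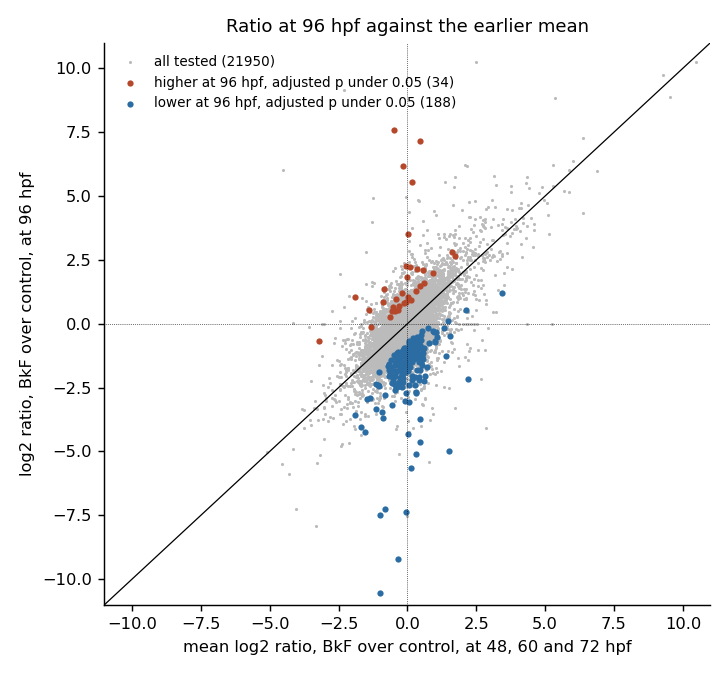
The 96 hpf log2 ratio, BkF over control (vertical), against the mean of the ratios at 48, 60 and 72 hpf (horizontal), with 1 point per gene and the line of equal ratio. The 188 genes called lower gather below the line near an earlier ratio of 0, and the 34 called higher lie above it.

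Of 65 genes of the spinal cord and its progenitors, in a list drawn up after such values had been seen, 21 were called lower. Over all genes the share was 0.856%, but the choice of the list builds in that count. The listed genes include the factors that keep cells dividing in the neural tube, start neurons and assign them to domains. NEUROD4, a factor of neuronal differentiation, stood at 1672, 999, 289.6 and 715 in control tissue and 1678, 1158, 285 and 83.6 in BkF tissue. The BkF value followed the control value through 72 hpf and then lay below all others. Its ratio at 96 hpf was -3.08, a difference of -3.15 ± 0.17 (SE) from the earlier mean (limma adjusted p = 0.0134). For nhlh2, another early neuronal factor, the values were 776, 587, 176 and 442 in control tissue and 878, 758, 226 and 66.8 in BkF tissue, and the difference was -3.01 ± 0.19 (limma adjusted p = 0.0134). The proneural gene neurog1, which commits cells to the neuronal fate, had 576, 409.8, 189 and 296 in control tissue and 417, 343, 96.7 and 32.0 in BkF tissue. It was already somewhat lower before 96 hpf, with ratios of -0.47, -0.25, -0.96 and -3.17.

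That list of 65 measured genes of neural progenitors and spinal cord domains had median ratios near 0 until 72 hpf and far below it at 96 hpf (0.018, 0.018, -0.14 and -1.43). At least 2-fold lower were 2, 2 and 4 of them at the earlier times and 42 at 96 hpf, against 8.70% of all genes, and 1 was higher. The difference passed as higher with 0. In 58 of 65 the 96 hpf BkF value was the lowest of 8, against 20.1% of all genes. Because the list was chosen on these samples, its counts are a description and no independent evidence of direction.

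Among its members, DBX1 (ENSDARG00000086393), a factor of interneuron progenitors, stood at 467, 339, 132 and 225 in control tissue and 424, 402, 100.4 and 26.8 in BkF tissue. A further entry of that symbol, DBX1 (ENSDARG00000001859), had a ratio of -1.73 and a difference of -1.69 ± 0.19 (limma adjusted p = 0.0364). The motor neuron factor genes mnx2a, mnx2b and MNX1 had ratios of -2.69, -1.16 and -1.03 at 96 hpf, where the earlier ratios were 0.17, 0.018 and 0.77, 0.74, 0.49 and 0.49 and 0.075, 0.19 and 0.12. All 3 passed the difference test, after earlier ratios at or above control. The Notch ligand genes dlb and DLL1 (ENSDARG00000020219), through which new neurons hold back their neighbours, had ratios of -2.12 and -1.68 and also passed. The intermediate filament gene nes, a progenitor marker, stood at 1259, 896, 511 and 867 in control tissue and 1226, 811, 397 and 288 in BkF tissue, and the difference was -1.40 ± 0.18 (limma adjusted p = 0.0456). VSX1, a factor of V2 interneurons and the retina, was listed at 57.0, 44.8, 11.3 and 32.9 in control tissue and 87.5, 53.9, 12.1 and 0 in BkF tissue, so no fold is given at 96 hpf, and it passed as lower (limma adjusted p = 0.0334). EN1, an engrailed factor gene of spinal interneurons and muscle pioneers, stood at 766, 716, 493 and 458 in control tissue and 317, 269, 189 and 60.5 in BkF tissue, so it was lower at all times and lowest at the end. SOX2, a factor that maintains progenitors, had ratios of -0.41, -0.57, -0.81 and -1.48, and its difference did not pass (-0.88 ± 0.18, limma adjusted p = 0.117). The proliferation marker list, which is not neural in particular, had a median of -0.023 at 96 hpf (0.14 with totals equalized) with 1 of 71 genes at least 2-fold higher and 1 lower. Its 1 call was STMN1 (ENSDARG00000033655), a tubulin regulator that young neurons also carry, at 0.081, 0.36, 0.29 and -1.39. The entry STMN1 (ENSDARG00000004169), with higher counts, was below control at all times, at -0.87, -0.90, -0.76 and -0.90. Its difference did not pass (limma adjusted p = 0.854).

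A few members of the list stood the other way. PRDM14, a factor gene that in zebrafish acts in motor neuron axon growth, stood at 70.4, 93.7, 45.4 and 74.96 in control tissue and 543, 999, 1475 and 1197 in BkF tissue, far above control at every time. SOX3 had ratios of 0.30, 0.35, 0.55 and 0.30 and ISL2 (ENSDARG00000003971), a factor of motor and sensory neurons, -0.42, -0.054, 0.13 and 0.24.

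Neuronal and glial genes were lower at 96 hpf as well, by smaller medians than the progenitor list. ELAVL3, an RNA-binding protein gene of young neurons, stood at 3982, 3315, 1211 and 2158 in control tissue and 4348, 4171, 1573 and 511 in BkF tissue. It was above control at 3 times and then far below, with a ratio of -2.08 and a difference of -2.35 ± 0.14 from the earlier mean (limma adjusted p = 0.0134). Of 55 neuronal genes of cytoskeleton, synapse and channels, 1, 1 and 3 were at least 2-fold lower at the earlier times and 14 at 96 hpf, with medians of 0.15, 0.18, 0.28 and -0.62. The difference passed as lower with 5, namely ELAVL3, STMN2 (ENSDARG00000070537), CPLX2, INA (ENSDARG00000053248) and MNX1. STMN2, which encodes a tubulin regulator of growing axons, had 430.3, 363, 177 and 247 in control tissue and 504, 502, 262 and 86.3 in BkF tissue. Genes of the mature motor neuron, CHAT and SLC18A3, which make and load acetylcholine, turned from above to below control in the same way, with ratios of 0.38, 0.77, 0.78 and -0.62 and 0.60, 0.41, 1.04 and -0.96, but did not pass (limma adjusted p = 0.114 and 0.0763). MAP1B and tubb5, cytoskeletal genes that other growing cells also use, were higher at 96 hpf, at 2.25 and 1.20.

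In the glial list 12 of 28 genes were at least 2-fold lower at 96 hpf and 1 was higher, with medians of -0.16, -0.33, -0.58 and -0.93. GFAP, the filament gene of radial glia, stood at 7676, 11930.3, 9974 and 9177 in control tissue and 6783, 10435, 7946 and 4319 in BkF tissue, a difference of -0.85 ± 0.11 (limma adjusted p = 0.0461). The Notch target genes her4.2 and her4.4 of radial glia had ratios of -2.27 and -2.34 at 96 hpf, and their differences did not pass (limma adjusted p = 0.0735 and 0.0662). The myelin gene mbpa, for which values were listed at 0 early on, stood at 0, 63.2, 525 and 613 in control tissue and 0, 0, 21.7 and 129.6 in BkF tissue, so its gap was narrower at 96 than at 72 hpf.

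**Figure D3:**
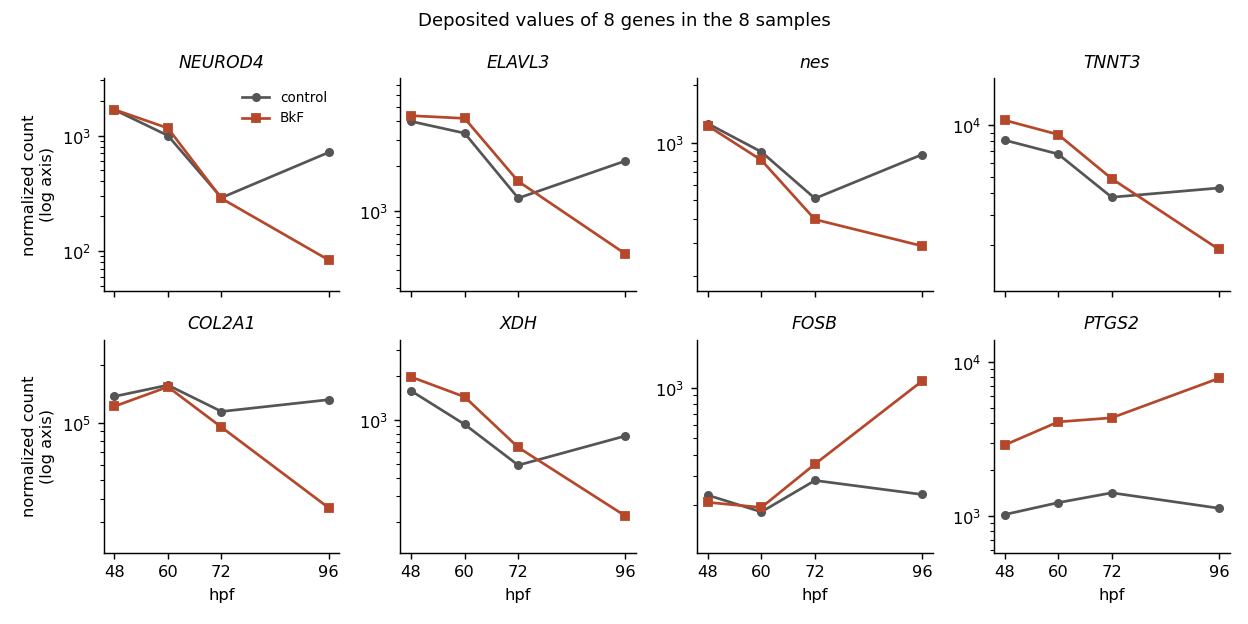
Deposited normalized counts (log axis, with its own range in each panel) of 8 genes in control (circles) and BkF tissue (squares) at 48, 60, 72 and 96 hpf, with 1 value per point. NEUROD4, ELAVL3, nes, TNNT3, COL2A1 and XDH part at 96 hpf, where the control value lies above that of 72 hpf and the BkF value below it, and FOSB and PTGS2 reach their highest BkF values there.

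Skeletal muscle genes stood at or slightly above control until 72 hpf and mostly below it at 96 hpf. Of 83 measured genes of contractile proteins, calcium handling and muscle factors, 7, 8 and 14 were at least 2-fold higher at the earlier times and 3, 2 and 2 lower, while at 96 hpf 1 was higher and 19 (22.9%) were lower, against 8.70% of all genes. The medians were 0.32, 0.15, 0.0024 and -0.66. The difference passed as lower with 18 members, against 0.856% of all genes, and as higher with 0, and 79 of 83 differences lay below 0. As the members were chosen with earlier results of these data known, these counts are a description. Summed over the list, the normalized counts at 96 hpf were 891026 in control and 563507 in BkF tissue.

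TNNT3 (ENSDARG00000030270), a troponin gene of fast fibres, stood at 8145, 6767, 3805 and 4303 in control tissue and 10628, 8777, 4872 and 1898 in BkF tissue. BkF was the higher of the pair at 48, 60 and 72 hpf and the lower at 96 hpf, and the difference was -1.55 ± 0.10 (limma adjusted p = 0.0134). For actn3a, the alpha-actinin of the fast Z disc, the values were 7554, 8369.9, 5287 and 5506 in control tissue and 9444, 10978, 7011 and 2751 in BkF tissue, with a difference of -1.37 ± 0.10 (limma adjusted p = 0.0220). MYBPC1, a myosin-binding protein gene of slow fibres, was lower at all times at -0.64, -0.66, -0.54 and -1.44, and the difference passed as well (limma adjusted p = 0.0461). Titin, the giant spring of the sarcomere, was between level with control and somewhat above it before and lower at 96 hpf, without passing. Its entries TTN (ENSDARG00000000563) and TTN (ENSDARG00000028213) had ratios of 0.43, 0.15, 0.0024 and -0.998 and 0.26, 0.11, -0.079 and -0.84.

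Some muscle genes ended at or above control. The fast myosin heavy chain genes myhz1.3 and myhc4 had been well above control at 1.43, 1.23 and 1.32 and 1.69, 1.26 and 1.42, and at 96 hpf were near it at -0.16 and 0.12. Both passed the difference test as lower. The parvalbumin gene pvalb1, a calcium buffer of fast fibres, stayed above control at 1.38, 1.02, 1.22 and 0.74. JPH1 (ENSDARG00000058603), a junction gene of the calcium stores, was the 1 member still at least 2-fold higher (1.92, 1.70, 1.94 and 1.02). Myosin heavy chain, troponin and actin genes have near-identical copies among which Salmon divides reads, so their values are uncertain at the level of the single gene. The myogenic factor genes MYOD1 and MYOG had ratios of -1.36 and -0.71 at 96 hpf, and their differences did not pass (limma adjusted p = 0.0732 and 0.118).

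Sheath and cartilage collagens were lower at 96 hpf, while col1a1a of skin and fin stood closer to control than before. COL2A1 (ENSDARG00000069093), a chain of the type II collagen that notochord and cartilage lay down, stood at 137424, 157612, 114546 and 132097 in control tissue and 121852, 154291, 94731 and 35753 in BkF tissue. The BkF value at 96 hpf was the lowest of 8, and the difference was -1.73 ± 0.18 (limma adjusted p = 0.0319). COL11A2, whose chain joins type II fibrils, had 33978, 40205, 30343 and 34564 in control tissue and 29366, 37552, 21788 and 6448 in BkF tissue. The gene col9a1b of type IX, which coats them, had 48424, 58753, 48618 and 51047 in control tissue and 40610.2, 52494, 34672 and 10445 in BkF tissue. Both were close to control until 60 hpf and far below at 96 hpf. Their ratios at 96 hpf were -2.42 and -2.29, and COL9A2 and col9a3 followed at -1.79 and -1.35. All 4 passed, as did col8a1a (-1.64). The other entry of type II, COL2A1 (ENSDARG00000011407), did not (-0.39, -0.69, -0.82 and -0.64).

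Of 37 collagen genes, 16 were at least 2-fold lower at 96 hpf and 1 higher, against 6, 8 and 8 lower at the earlier times, and the difference passed as lower with 6. The anchoring fibril gene col7a1 had ratios of -1.47, -1.99, -1.94 and -2.13 and the hemidesmosome gene col17a1a -1.44, -1.72, -1.92 and -1.53, which did not set 96 hpf apart. The main chain of type I, col1a1a, stood at 3744391, 4146076, 3807983 and 3612790.0 in control tissue and 2541937, 2654596, 2567352 and 3249991 in BkF tissue. Its ratio at 96 hpf was -0.15, and with totals equalized it was 0.01. Both COL12A1 entries, whose protein coats type I fibrils, stood closer to control too, with -1.17 and -0.76 at 72 hpf and -0.17 and -0.011 at 96 hpf.

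In the notochord list 9 of 27 genes were at least 2-fold lower at 96 hpf and 0 higher, against 0, 1 and 1 lower before. The medians were -0.14, -0.031, -0.049 and -0.45, and the difference passed as lower with 4, namely epyc, COL2A1 (ENSDARG00000069093), col8a1a and SHH (ENSDARG00000068567). The proteoglycan gene epyc had 21926, 30644, 24015 and 26438 in control tissue and 12903, 20591, 15527 and 6323 in BkF tissue. SHH encodes the signal by which notochord and floor plate pattern the cord. Its entry SHH (ENSDARG00000068567) had 5135, 5543, 4434 and 5059 in control tissue and 4555, 4956, 3868 and 2127 in BkF tissue, a difference of -1.07 ± 0.10 (limma adjusted p = 0.0248). A further entry of that symbol, SHH (ENSDARG00000038867), was below control at all times, with -0.56, -0.53, -0.84 and -1.87. Its difference of -1.23 did not pass. The vesicle coat genes COPA and COPB1, which notochord vacuoles and all secreting cells use, were higher at 0.50 and 0.55. Cartilage and bone genes had 11 of 36 at least 2-fold lower and 5 higher at 96 hpf. Their median was -0.15, and it was 0.0085 with totals equalized. The 2 calls were epyc and ihhb, a hedgehog gene of maturing cartilage (0.36, 0.49, 0.56 and -0.82). SOX9 (ENSDARG00000043923), an entry of a chondrogenic factor symbol that is shared, was lower at all times, with -3.03, -2.84, -3.29 and -3.71. These values do not cover other entries of that symbol. The mineral matrix gene scpp5 stood at 78.6, 23.1, 23.9 and 60.0 in control tissue and 16.7, 31.3, 115 and 817 in BkF tissue, so it was below control at 48 hpf and far above at 96 hpf, and its difference did not pass (limma adjusted p = 0.394).

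Among pigment cell genes the calls fell on those of xanthophores, the yellow pigment cells. XDH, whose enzyme works in the making of the yellow pteridines of xanthophores, stood at 1574, 928, 488 and 774 in control tissue and 1959.5, 1431, 646 and 219 in BkF tissue. It was above control until 72 hpf and then below, with a difference of -2.26 ± 0.17 (limma adjusted p = 0.0221). PTS, an earlier enzyme of that pathway, had 1797, 1245, 723 and 953 in control tissue and 2004, 1353, 739 and 345 in BkF tissue. The sugar carrier family genes slc2a11b, slc2a15a and slc2a15b, which are known for roles in xanthophores, had ratios of -1.27, -1.47 and -1.05 at 96 hpf, and the xanthophore marker aox5 had -0.95. Of 10 measured genes in a xanthophore list drawn up after values had been seen, 8 passed the difference test as lower and 0 as higher, and the medians were 0.097, 0.086, 0.077 and -1.16. The exceptions were aox6 (-0.78, -0.65, -0.77 and -0.59) and MYCBP2 (0.025, -0.11, 0.032 and 0.17). Because this list too was chosen on these samples, its counts and medians are a description. Of the 8, PAX7 also serves muscle stem cells and the dorsal cord, and the melanophilin gene mlphb (-0.034, -0.058, -0.36 and -2.29) is better known for moving melanin granules. The wider list of 34 pigment genes, which holds melanophore and iridophore genes as well, had 4 at least 2-fold higher and 5 lower at 96 hpf and a median of -0.27. Its 5 differences called lower are xanthophore genes of the first list.

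**Figure D4:**
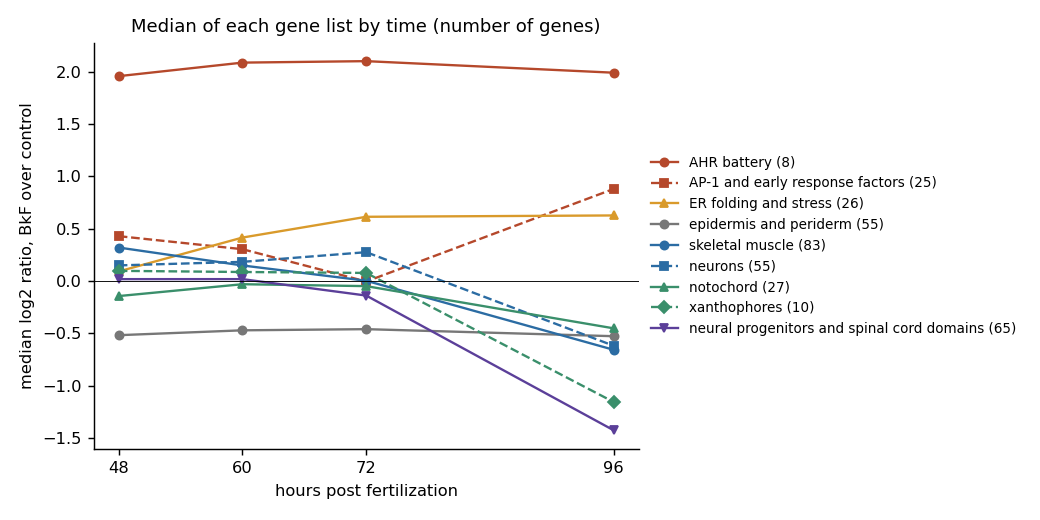
Median log2 ratio, BkF over control, in 9 gene lists at 48, 60, 72 and 96 hpf, with the number of measured genes in parentheses. The muscle, neuron, notochord, xanthophore and neural progenitor lists lie between -0.14 and 0.32 through 72 hpf and at -0.45 or lower at 96 hpf, while the AHR battery stays near 2 and the epidermal list near -0.5. The xanthophore and neural progenitor lists were drawn up after values had been seen, so their drop at 96 hpf is partly built in. The other lists were chosen with earlier results of these data known, so they are not independent of the data either.

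Hox genes, which mark position along the body, are carried by neural tube and muscle according to their level, and more of them were at least 2-fold lower at 96 hpf in groups 1 to 8 than in groups 9 to 13. In the groups 1 to 4, those of the hindbrain and anterior cord, 6 of 11 measured genes were at least 2-fold lower at 96 hpf, against 0, 1 and 0 before, and the medians were 0.13, 0.096, -0.13 and -1.09. Groups 5 to 8 had 6 of 10 lower, with medians of -0.034, -0.17, -0.25 and -1.27. In groups 9 and 10 it was 2 of 8, with -0.093, -0.057, -0.24 and -0.67. For groups 11 to 13, those of the tail tip, 0 of 9 were lower and 1 was higher, with 0.11, 0.023, 0.021 and -0.26. That last median was 0.53 over its 2 members matched by their own symbols alone.

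The difference passed as lower with 2 genes of groups 1 to 4 and with 0 of the other groups. The lowest median was that of groups 5 to 8, so the medians do not run in order from end to end. The gene hoxb1b stood at 2016, 1590.5, 1226 and 1377 in control tissue and 1465, 1218, 907 and 470.5 in BkF tissue, a difference of -1.12 ± 0.12 (limma adjusted p = 0.0353). HOXD3 had 1605, 1245, 1022 and 1346 in control tissue and 1751, 1603, 1010.0 and 569.9 in BkF tissue and also passed. In groups 11 to 13 the ratios were below control in 6 of 9 genes and the differences below 0 in 7, with HOXC11 at -0.90 and HOXD11 at -0.85 the lowest. HOXB13, near control, stood at 32510.2, 28281, 27441 and 25202 in control tissue and 35156, 29714, 27845 and 27552 in BkF tissue, and hoxa13b had ratios of -0.12, -0.033, -0.11 and 0.024. The gene hoxd13a, which is also active in fin buds, was above control at all times (0.87, 1.33, 1.37 and 1.03). The 96 hpf BkF value was the lowest of 8 in 10 of 11 genes of groups 1 to 4, 9 of 10 of groups 5 to 8, 8 of 8 of groups 9 and 10 and 6 of 9 of groups 11 to 13. Over all genes that share was 20.1%. Summed values of each Hox list were lower at 96 than at 48 hpf in control tissue too, so a lowest value at the last time is partly a matter of age. For groups 11 to 13 the control sums were 81456 at 48 hpf and 67189 at 96 hpf, and the BkF sum at 96 hpf was 66438. The Hox lists were drawn up after values had been seen. A shift of the cut along the body and lower expression per cell cannot be told apart in these samples, and the part of the Hox values in the lower neural, muscle and notochord values was not tested.

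**Figure D5:**
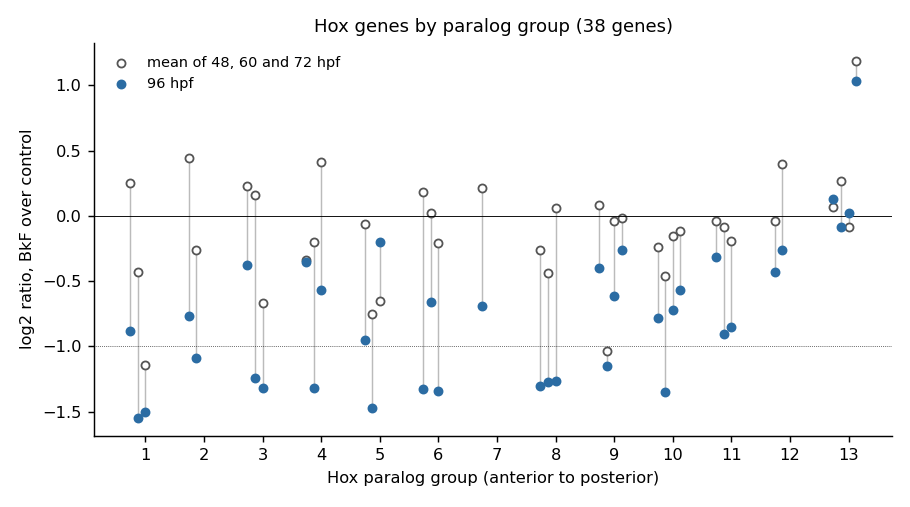
Log2 ratio of BkF to control of 38 Hox genes by paralog group, as the mean of 48, 60 and 72 hpf (open circles) and at 96 hpf (filled circles), with a line joining the 2 points of a gene and a dotted line at 2-fold lower. At 96 hpf 6 genes of groups 1 to 4 and 6 of groups 5 to 8 lie below the dotted line, and 0 of groups 11 to 13.

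Far fewer genes were called higher at 96 hpf, and FOSB and JUND of the early response list were among them. FOSB, a subunit of the AP-1 factor that is switched on within minutes of a stimulus, stood at 229.9, 183, 281 and 232 in control tissue and 208, 194, 352 and 1097 in BkF tissue. The 96 hpf BkF value was the highest of 8, and the difference was 2.15 ± 0.25 (limma adjusted p = 0.0380). NR4A1, an early response nuclear receptor gene, had 519.8, 968, 1333 and 784 in control tissue and 579.7, 861, 1305 and 2802 in BkF tissue, a difference of 1.85 ± 0.17 (limma adjusted p = 0.0248). JUND, another AP-1 subunit, had ratios of 0.39, 0.51, 0.53 and 1.47 and passed (limma adjusted p = 0.0385). Of 25 AP-1 and early response genes, 12 were at least 2-fold higher at 96 hpf and 2 lower, against 5.29% and 8.70% of all genes, and the counts higher before were 8, 6 and 6. The difference passed as higher with 2 of the 25, so these calls do not speak for the list. The medians were 0.43, 0.30, -0.0047 and 0.88.

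Some of these factors were near or below control at 60 and 72 hpf. The ratios of egr1, an early zinc finger gene, were 1.41, -0.18, -0.86 and 1.16, and those of EGR3 0.73, -1.48, -1.45 and 1.36. The genes JUNB, FOSL2 and ATF3 were higher at all times, with 1.58, 2.29, 2.49 and 2.79, 2.35, 2.94, 3.27 and 2.75 and 0.77, 0.95, 1.46 and 1.71, so they do not set 96 hpf apart. The flow-responsive gene klf2a stood at 2153, 4019, 12348 and 7018 in control tissue and 2187, 7117, 22789.8 and 35499 in BkF tissue, whereas its paralog klf2b was lower throughout (-1.20, -1.56, -1.35 and -1.52). The hour of each dissection is not stated in the labels. In the circadian clock list 4 of 31 genes were at least 2-fold higher at 96 hpf and 1 lower. NR1D1, a clock repressor gene, stood at 18.9, 51.7, 1327 and 1493 in control tissue and 108, 186, 759 and 4740.3 in BkF tissue. The part of the clock values in the early response values was not tested.

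The largest difference among named genes called higher was that of a prostaglandin gene. The gene ptgr1.2, which encodes a reductase that inactivates prostaglandins and leukotrienes, stood at 24.6, 14.4, 16.6 and 12.96 in control tissue and 18.6, 18.7, 25.1 and 647 in BkF tissue. BkF values were near control until 72 hpf, and the ratio at 96 hpf was 5.54, a difference of 5.35 ± 0.58 (limma adjusted p = 0.0353). PTGS2 (ENSDARG00000010276), the inducible cyclooxygenase, had 1019, 1219, 1412 and 1122 in control tissue and 2887, 4086, 4342 and 7849 in BkF tissue, already above control before and farther at the end (difference 1.18 ± 0.13, limma adjusted p = 0.0365). The prostaglandin E2 receptor gene PTGER2 (ENSDARG00000011434) was lower at -1.27, -1.80, -1.88 and -2.03. A prostaglandin list drawn up after values had been seen had 3 of 24 genes at least 2-fold higher at 96 hpf and 6 lower, so these 2 calls do not speak for the list.

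Further named genes called higher had various roles. The smooth muscle actin gene acta2 stood at 126, 347, 471 and 444 in control tissue and 45.0, 77.3, 111 and 921 in BkF tissue, below control at 3 times and above it at 96 hpf. As actin genes have near-identical copies, its values are uncertain at the level of the single gene. CCN1, a matrix-bound signal, had 2844, 3282, 5253 and 4455 in control tissue and 2188, 2586, 3648 and 8718 in BkF tissue. WWC1, a Hippo pathway regulator, went from -1.08, -0.55 and -0.96 to 1.35, and the glutamine carrier gene SLC38A3 (ENSDARG00000027065) from 0.36, 0.23 and 0.45 to 2.12. The NF-kappa-B inhibitor genes nfkbiaa and nfkbiab, which NF-kappa-B itself induces, reached 0.50 and 0.85. MTSS2 (ENSDARG00000087260), which shapes actin at membranes, ZDHHC2, a palmitoyl transferase, and akap7, an anchor of protein kinase A, reached 0.84, 2.11 and 0.65. From 72 to 96 hpf the log2 change of ZDHHC2 was -1.28 in control and 0.16 in BkF tissue, so its call rests mostly on the control value. For WWC1 and MTSS2 the changes were -1.32 and -0.94 in control tissue and 0.99 and 0.88 in BkF tissue. The fibronectin-domain gene fndc7rs2 differed by its approach to control, from -3.06, -3.21 and -3.40 to -0.66. All of these passed the difference test as higher.

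The measured genes of the AHR battery stood, by their median, at 96 hpf about where they had stood before. CYP1B1, a cytochrome P450 gene that the activated receptor induces, stood at 55154, 51648, 48368 and 48448 in BkF tissue against 75.3, 55.0, 80.7 and 102 in controls. Its ratio of 8.88 at 96 hpf was the highest of any gene with a gene name and values above 0 on both sides. The AHR repressor gene ahrrb reached its highest value at 96 hpf, with 314, 449.9, 496 and 637 in BkF tissue against 11.2, 5.75, 13.4 and 7.56 in controls. The ratios of tiparp, an AHR-induced ADP-ribosyltransferase that dampens the receptor, were 2.60, 2.55, 2.54 and 2.65, and those of the forkhead gene FOXQ1 were 3.57, 2.91, 2.76 and 3.29. Of 12 battery genes listed, 4 matched no symbol, and the 8 measured include no gene named CYP1A or CYP1C. Of these 8 measured genes 6 were at least 2-fold higher and 0 lower at 96 hpf, and the difference passed with 0. The battery medians were 1.96, 2.09, 2.10 and 1.99. NQO1, a quinone reductase that AHR and NRF2 share, had 0.28, 0.25, 0.34 and 0.070, and cyp1d1, which is known not to answer to AHR in zebrafish, 0.0024, -0.086, -0.21 and -0.34. The identifiers ENSDARG00000026039 and ENSDARG00000018298, for which no symbol was at hand, stood at 582 in control and 700404 in BkF tissue and at 54.7 in control and 47767 in BkF tissue at 96 hpf.

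The receptor gene ahr2 itself had ratios of 0.76, 0.84, 0.89 and 0.94, and 0 of 6 receptor and partner genes reached 2-fold. Of 23 genes of conjugation and transport of foreign compounds 6 were at least 2-fold higher and 2 lower. The glucuronosyltransferase gene ugt1b1 stood at 19753, 20293, 17521 and 18957 in BkF tissue against 1023, 934, 836 and 755 in controls. The sulfotransferase gene sult1st4 went the other way. It stood at 262, 216, 108 and 181 in control tissue and 70.6, 41.8, 22.9 and 6.09 in BkF tissue, and its ratio of -4.68 lay below the earlier -1.88, -2.34 and -2.19 without passing (difference -2.55 ± 0.37, limma adjusted p = 0.0557).

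The other genes with the highest ratios at 96 hpf, chosen by size, had various roles. The growth factor gene fgf7, a signal from mesenchyme to epithelium, stood at 3633, 3804, 3721 and 4921 in BkF tissue against 59.2, 61.0, 49.3 and 58.6 in controls. The leptin gene lepb was at 39.8, 115, 248 and 627 in BkF tissue against 0, 4.82, 0 and 8.74 in controls, with its highest BkF value at 96 hpf. The glucagon gene gcga had its highest BkF value at 96 hpf, with 163, 174, 234 and 453 in BkF tissue against 9.90, 7.15, 9.10 and 9.02 in controls. BMP8A, a bone morphogenetic protein gene, had its lowest BkF value at 96 hpf, with 421, 656, 598 and 268 in BkF tissue against 7.87, 7.59, 10.2 and 6.54 in controls. HAS1, which makes hyaluronan, was level with control at 48 hpf and farthest from it at 96 hpf, with 2.55, 13.2, 71.0 and 113 in BkF tissue against 3.49, 6.02, 2.17 and 1.13 in controls. CAMKV (ENSDARG00000005141), a kinase-like protein gene, was also farthest at 96 hpf, with 22.1, 30.8, 107 and 201 in BkF tissue against 11.2, 11.4, 15.1 and 3.89 in controls. Both control values at 96 hpf were below 10 counts, and the differences did not pass (limma adjusted p = 0.427 and 0.142).

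The laminin gene lamb3, of epidermal basement membrane, had ratios of 2.56, 5.33, 6.73 and 5.36, and the sodium-inositol carrier gene slc5a3a 5.53, 4.83, 5.47 and 5.37. PKHD1L1 (ENSDARG00000091116) and the mucin glycosyltransferase gene GCNT3 had 4.64, 4.64, 5.09 and 5.12 and 2.10, 2.98, 4.16 and 4.84. OXGR1 (ENSDARG00000033684), a receptor for oxoglutarate, was at 3.22 in control and 154 in BkF tissue at 96 hpf. MRPS22, a mitochondrial ribosome gene, was listed at 0 in the controls of 48 and 96 hpf and at 0.097 and 0.54 in log2 ratio between, so no fold is given for 96 hpf.

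The lowest ratio of any gene with a gene name and values above 0 on both sides was that of NOS1, which encodes the nitric oxide synthase of neurons. It stood at 6227, 4138, 2000.2 and 2762 in control tissue and 598, 216, 84.2 and 17.2 in BkF tissue. From 72 to 96 hpf the control value was higher and the BkF value lower, with ratios of -4.55 and -7.24 (difference -3.18 ± 0.45, limma adjusted p = 0.0521, which just misses the threshold). Dual oxidase and its maturation factor, which make hydrogen peroxide at the skin surface, were low as well. The gene duox stood at 17168, 14644, 9221 and 9592 in control tissue and 3006, 1419, 749 and 272 in BkF tissue. Its partner DUOXA1 had 1745, 1234, 793 and 846 in control tissue and 148, 52.9, 26.0 and 13.3 in BkF tissue, so in both the 96 hpf BkF value was the lowest of 8. Both were far below control at every time, and their differences did not pass (limma adjusted p = 0.128 and 0.268). Of 13 genes in the reactive oxygen and nitric oxide list 3 were at least 2-fold lower and 2 higher at 96 hpf, and these 3 were the lower ones, while the list median was -0.48 (0.07 over the members matched by their own symbols). At 48, 60 and 72 hpf 5, 4 and 5 of the list were at least 2-fold lower.

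Other genes at the low end had been low before. The complement factor gene cfd had -1.66, -3.35, -4.85 and -5.46, the fatty acid synthase gene fasn2 -4.02, -3.93, -3.31 and -4.08 and the proteoglycan gene cspg4bb -2.50, -3.90, -4.14 and -3.98. The adrenergic receptor gene ADRB1 and the gap junction gene gjc4a.2 had -2.48, -2.84, -3.37 and -3.80 and -3.12, -2.35, -4.23 and -3.77. ANKRD2, a stretch-responsive gene of slow muscle, stood at 121, 202, 515 and 853 in control tissue and 112, 704, 65.7 and 48.2 in BkF tissue, above control at 60 hpf alone. MEIOB, a meiosis gene, was at 7.52, 0.931, 1.00 and 148 in control tissue and 1.76, 0.966, 2.27 and 3.37 in BkF tissue, so its ratio rests on the control value of 96 hpf. The acyltransferase gene oacyl and the embryonic globin gene hbbe3 passed the difference test. The former stood at 3725, 897, 223 and 779 in control tissue and 3149.9, 994, 248 and 38.2 in BkF tissue. The latter had 1759, 398, 35.4 and 322 in control tissue and 2813, 1239.5, 162 and 9.24 in BkF tissue, with BkF above control at the earlier times and far below at 96 hpf. Globin genes have near-identical copies, and hbbe3 is uncertain for that reason. Of 29 erythroid genes 6 were at least 2-fold higher and 3 lower at 96 hpf. The spectrin gene SPTB of the red cell skeleton was the other call of that list (0.0059, 0.035, 0.078 and -0.88), and the globin gene hbae5 stood the other way (0.82, -0.34, 0.89 and 3.08).

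Further genes called lower included VILL, a villin-like gene (1.01, 1.59, 1.65 and -1.27), chadla, a matrix gene (-0.46, 0.031, 0.26 and -2.69), MYT1, a neural zinc finger gene (0.53, -0.034, 0.80 and -2.20), and PRDM13 and lhx1b, factors of dorsal and other interneurons (0.64, 0.44, 0.80 and -2.05 and 0.74, 0.64, 0.43 and -2.23). The neuropeptide gene CARTPT was called lower although it was still above control at 96 hpf, with ratios of 2.99, 3.69, 3.66 and 1.21.

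Skin genes, whose median was below control at all times, were about as low at 96 hpf as before. Of 55 epidermal and periderm genes 17 were at least 2-fold lower and 1 higher, with 12, 13 and 16 lower before and medians of -0.52, -0.47, -0.46 and -0.53. The difference passed with 0. Within this list the keratins krt4, cyt1l and cyt1 were farther below control at each time. The gene cyt1l stood at 1384730.0, 1338296, 1099253 and 1084684 in control tissue and 421589, 294326, 165452 and 76672 in BkF tissue. For krt4 the values were 3732111, 3505630.0, 2683523 and 2782088 in control tissue and 1314809, 969821, 625659.8 and 402569.9 in BkF tissue. The ratios of cyt1 were -1.47, -1.67, -1.90 and -2.41. In krt5 and krt91 the ratio at 96 hpf lay above that of 72 hpf, with -1.06, -1.38, -1.49 and -1.41 and -2.89, -3.47, -3.54 and -3.33. Ionocytes, the salt-transporting cells of the skin, had 18 of 37 genes at least 2-fold lower at 96 hpf against 8, 7 and 14 before, with medians of -0.19, -0.31, -0.65 and -0.95. The ionocyte factor gene foxi3b stood at 40.3, 78.1, 115 and 128 in control tissue and 23.0, 16.8, 10.3 and 14.4 in BkF tissue. Hair cell and lateral line genes had 17 of 36 lower and 4 higher, with medians of -0.65, -0.56, -0.80 and -0.77. In both lists the difference passed with 0.

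Fin fold and signalling genes had their own order. Of 43 genes of the fin fold and its mesenchyme 11 were at least 2-fold higher at 96 hpf and 3 lower. The fibre gene and2 narrowed its gap, with 1731428, 2164660.4, 2296307 and 2090017 in control tissue and 515328, 645699, 681327 and 833611 in BkF tissue, while and3 widened it (-0.88, -1.06, -1.15 and -1.56). FGF20 (ENSDARG00000007356), of the family of a fin regeneration signal, had 3.95, 3.98, 3.87 and 3.71. Of 29 FGF genes 5 were at least 2-fold higher and 5 lower, and of 47 BMP and TGF-beta genes 6 and 4. Among 50 Wnt genes 10 were higher and 12 lower, with a median of -0.54. DKK3, a secreted protein of the Dickkopf family, stood at 1057, 1623, 2986 and 6368 in BkF tissue against 829.8, 553, 599 and 631 in controls, with the gap wider at each time. WNT16 stood at 45.2, 60.5, 52.0 and 8.25 in BkF tissue against 109, 97.1, 106 and 64.0 in controls, and its ratio of -2.81 at 96 hpf followed -1.25, -0.67 and -1.01 without passing (limma adjusted p = 0.141). Retinoic acid genes had 4 of 21 higher and 2 lower. The synthesis gene ALDH1A2 was farther above control at each time (2.23, 2.70, 3.10 and 3.63), and ALDH1A3 was closer to control at 96 hpf than before (3.95, 4.07, 4.37 and 3.11). In these 5 lists the difference passed with 0 genes.

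Some matrix protease and leukocyte genes had their highest BkF values at 96 hpf. The collagenase gene mmp13a stood at 2635, 8585, 10741 and 20890.2 in BkF tissue against 809.8, 549.6, 725 and 869 in controls. MMP9, a gelatinase gene, was at 13369.7, 20003, 25655 and 36615 in BkF tissue against 7850.0, 5063, 4393 and 6977 in controls. Both were above control at every time, and their differences did not pass (limma adjusted p = 0.553 and 0.720). The ratio of MMP9 was 2.55 at 72 hpf and 2.39 at 96 hpf, so it was not highest at the end. In the protease list 9 of 34 were at least 2-fold higher and 6 lower, and in the leukocyte list 12 of 52 and 7. ACOD1, a macrophage gene of itaconate synthesis, had 1.12, 2.77, 2.36 and 3.37. The chemokine gene cxcl12b was the call of the leukocyte list (-0.073, -0.12, -0.54 and -2.06) and MASP1, a complement protease gene, that of the complement list (0.20, 0.29, 0.32 and -1.03), both as lower. Interferon genes had 6 of 39 higher and 2 lower, with a median of 0.0051. Complement and acute phase genes had 4 of 28 higher and 6 lower, and the vascular list 1 of 37 higher and 5 lower, and both medians (-0.068 and -0.074) changed sign with totals equalized (0.093 and 0.090).

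Genes of folding in the endoplasmic reticulum and of the proteasome were above control in nearly all members, mostly by less than 2-fold, and cytosolic heat shock genes were split. Of 26 genes of folding in the endoplasmic reticulum 24 were above control at 96 hpf and 5 at least 2-fold, with medians of 0.092, 0.42, 0.61 and 0.63. In 20 of 26 the 96 hpf BkF value was the highest of 8, against 21.8% of all genes. DNAJB9 (ENSDARG00000016886), a chaperone gene, stood at 753, 989, 1259.8 and 1716 in BkF tissue against 560.4, 532, 537 and 590.2 in controls. Of 38 proteasome genes 37 were above control and 2 at least 2-fold, with medians of 0.33, 0.55, 0.64 and 0.63. In the cytosolic heat shock list 14 of 23 genes were above control and 9 below, with a median of 0.18. At least 2-fold higher were 4, among them hsp70.3 with 334, 268, 322 and 983 in BkF tissue against 285, 188, 251 and 358 in controls, whose difference did not pass (limma adjusted p = 0.0991). The antioxidant list had 4 of 27 at least 2-fold higher and 0 lower, and the haem oxygenase gene HMOX1 stood at 605, 918, 1142 and 1878 in BkF tissue against 296, 407, 434 and 456 in controls. In the p53 list 3 of 30 were higher and 1 lower. Difference calls in these 5 lists numbered 0, except for 1 heat shock gene called lower, hsp90aa1.1, a chaperone of muscle myosin (-0.0100, 0.14, 0.14 and -1.16).

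Genes of ribosomes, mitochondria and cilia had small ratios. List counts here and above are to be read against 5.29% higher and 8.70% lower over all genes. Ribosomal protein genes were below control in 62 of 65 and at least 2-fold lower in 0, with medians of -0.100, -0.21, -0.50 and -0.30. Genes of the mitochondrial ribosome and import were above control in 53 of 56, with a median of 0.26, and those of the respiratory chain had 0.061. Among the latter ndufb3, a complex I subunit gene, was called higher (0.15, 0.17, 0.12 and 0.91). Motile cilia genes had medians of 0.34, 0.57, 0.56 and 0.11, with 0 of 38 at least 2-fold either way at 96 hpf. In the list of sterol and fatty acid synthesis 5 of 37 were at least 2-fold lower and 0 higher. Hypoxia and glycolysis genes had 4 of 48 higher and 5 lower, shares (8.33% and 10.4%) near those of all genes (5.29% and 8.70%), and stress hormone genes 8 of 32 and 4, with GADD45G (ENSDARG00000016725), a growth arrest gene, called lower (-0.040, -0.11, -0.48 and -2.48). Apolipoprotein and liver genes had medians of 2.01, 0.018, 0.15 and -0.59, with 5 of 26 at least 2-fold higher and 9 lower at 96 hpf. The lipid carrier gene apoeb stood at 100475, 134594, 199317 and 299594 in BkF tissue against 59613, 53779.8, 70969 and 83691 in controls, and transferrin (tfa) at 151, 181, 303 and 314 in control tissue and 605, 970.0, 92.1 and 31.3 in BkF tissue.

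The deposited totals and the genes' own course with age are given beside these sizes. The summed normalized counts were 87750209 in the control and 78312306 in the BkF sample of 96 hpf, 10.8% lower, and 11.9 to 13.1% lower at the earlier times. The 10 largest drops at 96 hpf, among them krt4, and2, cyt1, cyt1l and col1a1a, summed to -7828826, and the 10 largest gains to 1672248. The net difference between the 2 totals was -9437903, so the drops are not a share of it. With totals equalized, the median log2 ratio of all genes was 0.16 higher, and the ratios above would be read against that. In control tissue 1622 genes were at least 2-fold higher at 72 than at 48 hpf. Their median ratio was -0.35 at 60 hpf and -0.29 at 96 hpf. At least 2-fold lower were 22.4% of them at 60 hpf and 25.1% at 96 hpf, and 14.1% were at least 2-fold higher at 96 hpf. Another 907 genes were at least 2-fold lower in control tissue at 72 hpf. Their median ratio was 0.26 at 60 hpf, above control, and -0.28 at 96 hpf. At least 2-fold lower were 8.71% of these at 60 hpf and 29.5% at 96 hpf, and 12.5% were at least 2-fold higher at 96 hpf. For the 19421 between, the medians were 0.012 and 0.0011, and 6.35% were lower and 4.22% higher at 96 hpf. NEUROD4, nhlh2, neurog1, ELAVL3 and nes belong to the 907, and in control tissue each stood higher at 96 than at 72 hpf. The part of age in their ratios was not tested.

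Values of 0 limit some ratios. At 96 hpf 41 genes were listed at 0 in control and 43 in BkF tissue, and 11 were at 0 on 1 side and at 100 or more on the other. MRPS22 and ERLEC1 are among these 11, and ERLEC1 was listed at 0 in 6 of 8 samples. Some of the 11 passed the difference test, among them the largest differences either way. These were ENSDARG00000096476 (8.06, with control at 0) and ENSDARG00000088485 (-9.52, with BkF at 0). In the former the BkF value was 154 at 72 hpf and 191 at 96 hpf, so the call rests on the control value of 0.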

How the data were processed

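RNA of the distal trunk was sequenced from 4 pools of 50 animals per condition, 32 libraries in all, as stranded messenger RNA with 100 bp single-end reads, per the labels' protocols. The submitters' processing notes list Zv9 as the genome build and Salmon, DESeq2, Trimmomatic and FastQC as tools, without roles or versions. Each signal value is a normalized count that the authors averaged over the pools with DESeq2 before they deposited it, per the labels, so 8 conditions have 1 value each. The reads behind a value and the spread between pools are therefore unknown, and no interval or replicate error is given. Division by size factors compares a gene between samples, not genes with each other.

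From these values the log2 ratio was computed with a pseudocount of 1, which understates the ratio of low genes, for those 21950 of 24345 identifiers whose mean across the samples was at least 10. Ratios at 96 hpf are sizes with no test. What set 96 hpf apart was tested by limma 3.58.1 under R 4.3.3 (time as a block, a BkF term, and a BkF term for 96 hpf alone, with an intensity trend, two-sided, Benjamini-Hochberg over all 21950 genes). Tables and plots were made with Python 3.11.15, pandas 2.3.3, numpy 2.4.6 and matplotlib 3.10.9.

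Symbols came from a table of gene names and were found for 18028 identifiers, of which 2513 share a symbol and are then printed with their identifier. Of 1846 names in the gene lists, 1127 matched their own symbol and 384 the symbol in capitals without its paralog letter, so that a capitalized symbol may stand for either fish paralog. Another 335 matched nothing. The members and the 41 lists were chosen with earlier results of these data known, and 7 lists (4 of Hox genes, neural progenitors and spinal cord domains, xanthophores, prostaglandins) were added after values had been seen. Genes were named by rule: at means from 50 upward, the 15 highest and 15 lowest ratios at 96 hpf and the 12 highest and 12 lowest differences past the threshold, the AHR battery, the 3 members with the largest absolute ratio in each other list, and the 10 genes with the largest difference in value. Genes without a gene name were passed over in this rule and some others were left out for length. Other genes named, mostly list members past the difference test and further members of the same families, were chosen after their values were seen. Alternatives were a pseudocount of 10, no filter, a mean of 50 or more, totals equalized, quantile normalization, no intensity trend, a robust prior, each earlier time left out and, added after seeing the data, own symbols only and each earlier time as the single time.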

Additional observations from a re-analysis of the deposited data

Results flagged for a closer look

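Each result here was marked because the ratio of BkF to control at 96 hpf differed from that at the earlier times by the test of the difference itself (limma adjusted p under 0.05). This held for 34 genes as higher and 188 as lower. All values below are differences on the log2 scale, 96 hpf minus the mean of 48, 60 and 72 hpf. The named genes as higher were ptgr1.2 (5.35), acta2 (2.95), fndc7rs2 (2.57), WWC1 (2.21), FOSB (2.15), NR4A1 (1.85), SLC38A3 (ENSDARG00000027065) (1.78), MTSS2 (ENSDARG00000087260) (1.71), ZDHHC2 (1.53), CCN1 (1.38), PTGS2 (ENSDARG00000010276) (1.18) and akap7 (1.17). The named genes as lower were hbbe3 (-6.47), oacyl (-4.34), NEUROD4 (-3.15), mnx2a (-3.01), nhlh2 (-3.01), DBX1 (ENSDARG00000086393) (-2.93), lhx1b (-2.83), VILL (-2.69), PRDM13 (-2.67), chadla (-2.64), MYT1 (-2.63) and neurog1 (-2.61). No group holds enough samples for a test of outlying samples, and no column lay outside the comparison.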

How the results depend on the processing

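The count of genes whose ratio at 96 hpf differed from the earlier times, 34 higher and 188 lower, kept to within 1.5 times with a pseudocount of 10, no filter, a mean of 50 or more, totals equalized, quantile normalization and a robust prior (26 to 36 higher and 161 to 211 lower). It was 2 and 1 with no intensity trend, and 2 of the 34 and 0 of the 188 were shared. It was 203 and 541 without 48 hpf, 155 and 510 without 72 hpf, and 1 and 3 without 60 hpf. The cause was not tested. Of the 24 named differences, 24 no longer passed with no intensity trend and 23 without 60 hpf, all with the same sign, and 24 passed without 48 hpf, without 72 hpf, with totals equalized and with a robust prior. Counted per gene or list under each alternative, 521 named ratios and 194 list medians stayed close to their value, and 34 and 46 moved. With totals equalized 25 list medians stayed and 23 moved, and with own symbols only 35 stayed and 13 moved. Signs turned for actb2 (0.31 under quantile normalization, against -0.76) and col1a1a. They also turned for list medians near 0 (FGF, complement, vascular, conjugation, prostaglandin, proliferation, cartilage and bone) and, by name matching, for Hox groups 11 to 13 and the reactive oxygen list. No paired analysis was possible because each condition has 1 deposited value and so no replicate number to pair by, and time was the block in the test itself. With unknown depth, ratios of genes at a few counts (HAS1, lepb, MEIOB) are the least certain.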
